A study of Mus musculus with 23 samples.

Results

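Gpr56, Eltd1, Cd97 and Emr1 are adhesion G protein-coupled receptors, and their rows are 4 of the 23536 gene rows in a table of single mouse bone marrow cells. They were taken by gene symbol, and 25 further genes of the same receptor family have a row in that table. Gpr56 and Eltd1 had been put forward because their transcripts were more abundant in sorted hematopoietic stem cells than in micro-dissected marrow cells, so that comparison is given here as a description of the receptors, without a test. The levels within the micro-dissected cells took no part in putting Gpr56 and Eltd1 forward, and comparisons among those cells are tested. All 4 receptors were chosen with earlier results of these data known, which these tests do not take into account.

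The sorted cells were hematopoietic stem cells (HSC) of mouse bone marrow sorted one by one through the gate Lineage- Kit+ Sca1+ CD150+ CD48-. The cells they were set against came from gently flushed marrow in which small clumps, most of them of a few attached cells, had been cut apart with needles so that the contacts between cells could be followed. Each cell was sequenced by CEL-seq, a method that reads the 3′ end of each messenger RNA together with a random tag, and values are estimated transcripts. They are not scaled by gene length, so levels are compared between cells and not between genes. Cells with at least 1000 transcripts were kept, which left 245 sorted HSC in 4 libraries and 707 micro-dissected cells in 17 libraries. Both groups carry the same label of bone marrow, and the labels state no treatment, genotype, strain, age or number of animals, so errors over libraries may be technical. The micro-dissected libraries were read on a NextSeq500 and the sorted ones on a HiSeq2500 or a NextSeq500. Which sorted library was read on which of these is not stated in the labels, and the sequencer's part in the differences between the groups was not tested.

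An adhesion G protein-coupled receptor has a long extracellular part that binds matrix or the surface of a neighbouring cell, and a bundle of membrane-spanning helices that passes the signal to G proteins. Most of these receptors cut themselves next to the membrane and stay together as a pair of fragments, and pulling the outer fragment away exposes a short built-in agonist. In blood-forming tissue Gpr56 (now Adgrg1) is known as a receptor of stem cells and of platelets, binds collagen III and transglutaminase 2, and signals through G12 and G13 to the small GTPase RhoA. Cd97 (now Adgre5) is a leukocyte receptor for Cd55, Thy1 and integrins. Emr1 (now Adgre1) encodes F4/80, the classical surface antigen of mouse macrophages, which mouse eosinophils also carry. Eltd1 (now Adgrl4) is best known from endothelium.

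The receptors lie at 3 places in the genome (mm10, GENCODE M21). Gpr56 spans chr8:94974751-95014217 on the plus strand and Gpr97, another receptor of the family, starts 3474 bases after its end. Cd97 lies on the minus strand of the same chromosome at chr8:83723251-83741326, Eltd1 at chr3:151437887-151545086 on the plus strand and Emr1 at chr17:57358691-57483527 on the plus strand. Of the members, Gpr56 and Eltd1 have an entry in the RefSeq promoter table used (build GRCm38.p6, 250 bases before to 50 bases after the start). They are shown because these are the receptors with most transcripts in sorted HSC relative to other marrow cells, and because GATA, RUNX and ETS factors are the regulators best known in those cells. For GATA factors the letters AGATAA were searched. For RUNX factors TGTGGT was used and for ETS factors AGGAAG. Both strands were searched, and a match is in capitals. First and second start of Gpr56 name the entries of the promoter table. Both windows lie inside the GENCODE span given above, and the upstream end of that span was not searched.

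Eltd1, chr3:151437632-151437931, plus strand: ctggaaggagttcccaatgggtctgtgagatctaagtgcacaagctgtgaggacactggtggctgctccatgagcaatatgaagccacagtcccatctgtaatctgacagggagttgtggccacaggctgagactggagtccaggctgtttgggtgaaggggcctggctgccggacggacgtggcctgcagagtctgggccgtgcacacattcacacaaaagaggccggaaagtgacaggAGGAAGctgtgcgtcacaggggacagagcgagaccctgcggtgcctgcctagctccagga

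Gpr56, first start, chr8:94976859-94977158, plus strand: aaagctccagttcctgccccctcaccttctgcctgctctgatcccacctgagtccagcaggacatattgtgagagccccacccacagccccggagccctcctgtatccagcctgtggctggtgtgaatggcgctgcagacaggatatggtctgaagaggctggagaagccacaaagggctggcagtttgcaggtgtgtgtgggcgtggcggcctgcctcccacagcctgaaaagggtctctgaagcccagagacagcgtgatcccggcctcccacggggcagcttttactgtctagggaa

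Gpr56, second start, chr8:94984149-94984448, plus strand: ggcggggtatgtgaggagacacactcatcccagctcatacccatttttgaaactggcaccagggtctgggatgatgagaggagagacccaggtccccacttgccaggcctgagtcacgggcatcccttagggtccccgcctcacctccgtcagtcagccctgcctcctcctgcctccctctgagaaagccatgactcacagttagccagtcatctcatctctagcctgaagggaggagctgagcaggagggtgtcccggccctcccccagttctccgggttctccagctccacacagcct

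The window of Eltd1 held 1 match to AGGAAG, close to the start site, and neither window of Gpr56 held any of the 3 motifs. Over 32851 windows of the same length, 35.4% held AGGAAG, 16.8% TGTGGT and 11.2% AGATAA on either strand. A match describes letters and not a bound site.

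The sorted cells had more transcripts of an HSC marker list than the micro-dissected cells. All 12 genes of an HSC marker list had transcripts in them, at a summed 4738 to 6058 transcripts per 1000000 transcripts of a library (CPM) against 111 to 701 CPM in micro-dissected libraries, where Procr and Mecom were at 0. Of the genes of the gate, Kit stood at 486 CPM over all sorted and 50.6 CPM over all micro-dissected cells, and Ly6a (Sca1) at 330 and 54.6 CPM. Cd48 was at 5.58 and 69.3 CPM, while Slamf1 (CD150) was at 44.6 and 40.1 CPM and so did not set the groups apart. Of the other cell types, the eosinophil list gave 1 transcript in all sorted cells. The macrophage list gave 0 to 660 CPM in sorted libraries against 298 to 10786 CPM in micro-dissected ones, with C1qa, Vcam1, Mertk, Spic, Timd4 and Marco at 0 in sorted cells. Other lists had transcripts in sorted libraries too, among them erythroblast (642 to 1596 CPM against 2523 to 26140 CPM in micro-dissected ones) and megakaryocyte (644 to 1404 against 0 to 28188 CPM). The plasmacytoid dendritic list gave 282 to 964 CPM against 69.2 to 954 CPM. Libraries held 3119 to 238770 transcripts in the sorted group and 9032 to 313488 in the micro-dissected group, and cells had medians of 1926 and 2272 transcripts. Sorted replicate 1 held only 2 cells, and 1 transcript there is worth 321 CPM.

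Gpr56 was abundant in every sorted library. It stood at 965, 2224, 2478 and 1885 CPM in sorted replicates 1, 3, 4 and 5, against a lowest level of 0, a median of 51 and a highest of 210 CPM in the 17 micro-dissected libraries. Every sorted library was above every micro-dissected one, and 4 micro-dissected libraries had no Gpr56 transcript. Gpr56 and Eltd1 were put forward from this contrast, so a lack of overlap is a description and nothing more is read from it. The means were 1888 ± 661 CPM (SD, n = 4) in sorted HSC and 69.7 ± 67.4 CPM (SD, n = 17) in micro-dissected cells, a log2 fold change of 4.32 ± 0.51 (SE) in an edgeR fit over 10917 genes whose median was 0.23. Of all genes in that fit, 27.9% were called at an adjusted p of 0.05, with 17.4% above and 10.5% below the micro-dissected level, and nothing is read from this for the receptors. Of the genes called, 62.4% were higher in sorted HSC, against 34.2% of those called with DESeq2.

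Eltd1 had the same direction. Its levels were 321, 223, 188 and 211 CPM in sorted replicates 1, 3, 4 and 5, against 0, 7.67 and 47.5 CPM for the lowest, median and highest of the micro-dissected libraries. Here too the groups did not overlap, although the value of sorted replicate 1 rests on 1 transcript. The means were 236 ± 58.6 CPM in sorted HSC and 9.98 ± 11.8 CPM in micro-dissected cells (SD, n = 4 and 17), and the log2 fold change was 4.03 ± 0.39 (SE).

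Cd97 and Emr1 lay the other way. Cd97 was at 0, 84, 42.8 and 106 CPM in sorted replicates 1, 3, 4 and 5, against 20.3, 139 and 569 CPM for the lowest, median and highest of the micro-dissected libraries, and these ranges overlapped. The means were 58.1 ± 46.7 CPM in sorted HSC and 187 ± 132 CPM in micro-dissected cells (SD, n = 4 and 17), with a log2 fold change of -1.42 ± 0.46 (SE). Emr1 had no transcript in any of the 245 sorted HSC, against 0, 21.3 and 136 CPM for the lowest, median and highest of the micro-dissected libraries. A count of 0 among all sorted transcripts allows up to 5.56 CPM (3 transcripts over the group). With 38.1 CPM over all micro-dissected cells, Emr1 was at least 6.85-fold lower in sorted HSC. This bound covers counting error of the sorted cells only, takes the pooled 38.1 CPM as exact and leaves out the spread between libraries.

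**Figure D1:**
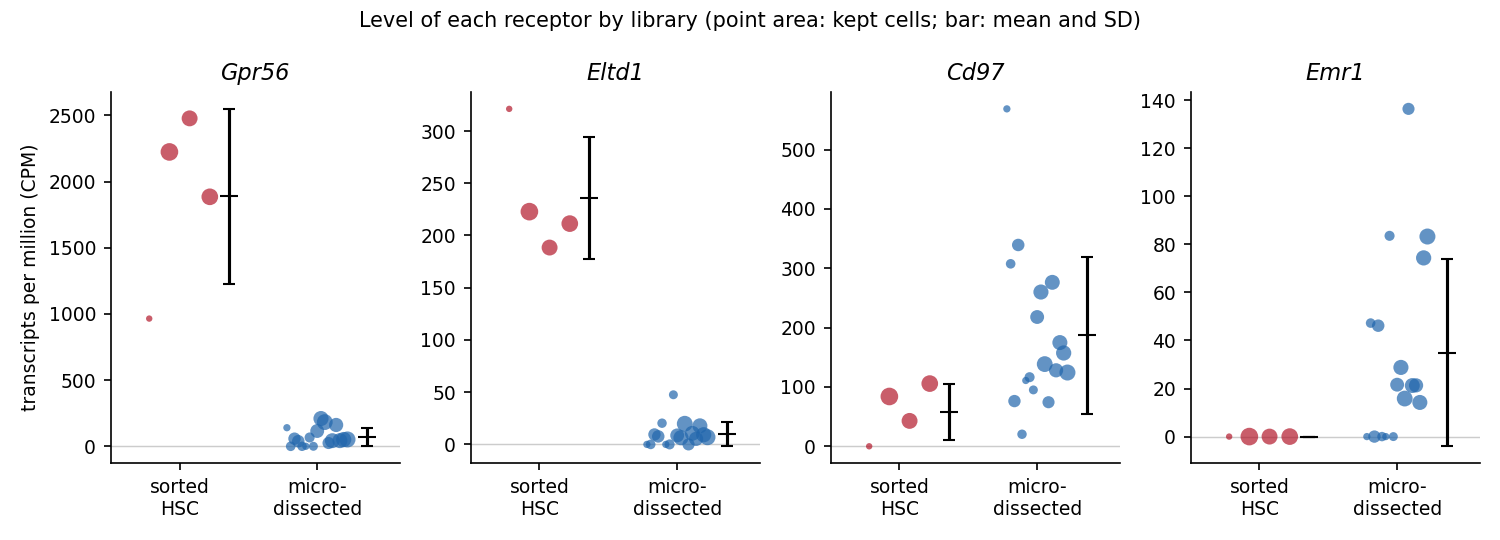
Level of each receptor in CPM (vertical axes from each gene's own range) in the 4 sorted HSC libraries in red and the 17 micro-dissected libraries in blue. Points are libraries, with area by the number of kept cells, and bars are the mean and SD over libraries. All sorted libraries lie above all micro-dissected ones for Gpr56 and Eltd1, the genes put forward from this contrast. The ranges of Cd97 overlap, and Emr1 is at 0 in each sorted library.

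Nearly every sorted cell had Gpr56 RNA. A transcript was found in 236 of 245 sorted HSC (96.3%, 95% exact binomial interval 93.1 to 98.3%) and in 80 of 707 micro-dissected cells (11.3%). With each cell thinned to 1000 tags the shares were 84.9% in sorted HSC and 4.55% in micro-dissected cells. For comparison, 3 of 164 globin-led erythroblast-like cells (1.83%) had a Gpr56 transcript at a median depth of 1549 transcripts, against a median depth of 1926 in the sorted HSC. Intervals and limits of this kind cover counting error only.

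The median number of Gpr56 tags per sorted cell was 4 and the quartiles were 3 and 6. The highest cell had 16, 9 cells had none, and 110 cells (44.9%) had 5 or more. After thinning to 1000 tags, the variance of the count was 1.07, 1.20 and 1.25 times its mean in sorted replicates 3, 4 and 5, where Poisson sampling gives a ratio of 1. The share of cells with a transcript was 98.9%, 95.8% and 93.8% in the same libraries.

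Eltd1 was found in 84 sorted HSC (34.3%) and 20 micro-dissected cells (2.83%), and after thinning in 16.3% and 0.587%. Of the 245 sorted HSC, 161 had no Eltd1 tag, 60 had 1, 21 had 2 and the highest had 6. Cd97 was found in 36 sorted HSC (14.7%) and 247 micro-dissected cells (34.9%), and after thinning in 6.12% and 15.3%. Emr1 was found in 0 of 245 sorted HSC and in 51 micro-dissected cells (7.21%, or 4.11% after thinning). A count of 0 in 245 cells allows a share of up to 1.22% (3 cells) with a detected transcript, which is no limit on the share of cells that express the gene. Thinning left out 26 micro-dissected cells and no sorted one.

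Gpr56 was found in 81 of the 84 sorted HSC with Eltd1 (96.4%) and in 155 of the 161 without it (96.3%). After thinning it was found in 32 of 40 with Eltd1 (80%, exact binomial interval 64.4 to 90.9%) and in 176 of 205 without it (85.9%, interval 80.3 to 90.3%). Gpr56 was found in 34 of the 36 sorted HSC with Cd97 (94.4%) and in 202 of the 209 without it (96.7%). Eltd1 was found in 13 of the 36 sorted HSC with Cd97 (36.1%) and in 71 of the 209 without it (34%). The exact binomial intervals of this last pair were 20.8 to 53.8% with Cd97 and 27.6 to 40.8% without it.

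**Figure D2:**
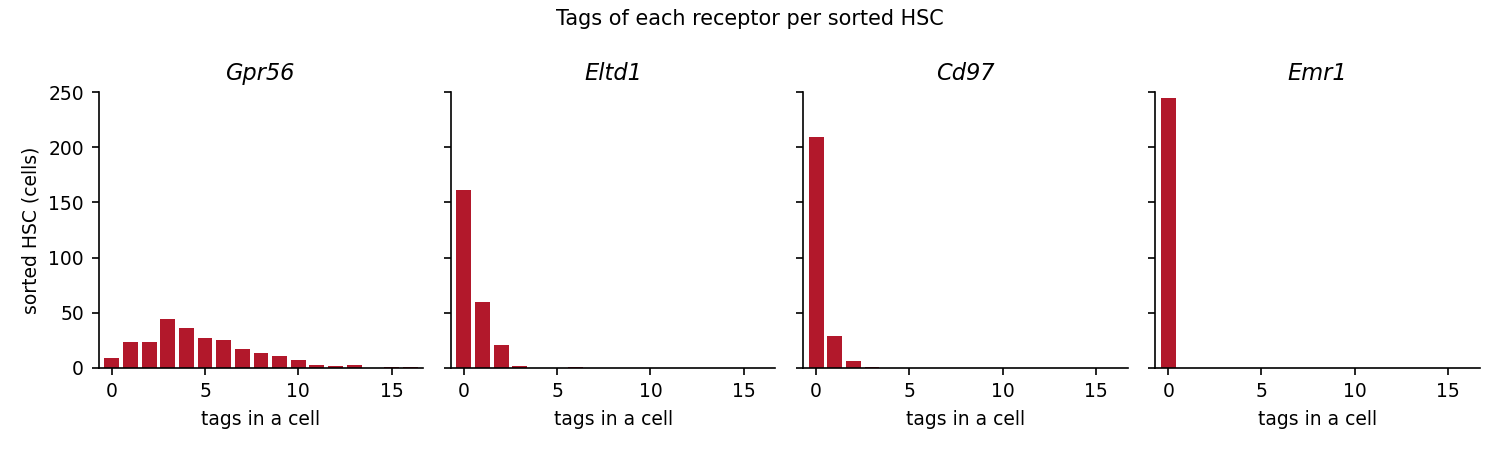
Number of sorted HSC (vertical axis) by the number of tags of each receptor in the cell (horizontal axis), over all 245 kept sorted cells. Gpr56 has its middle at 4 tags with 9 cells at 0, while 161 cells are at 0 for Eltd1, 209 for Cd97 and 245 for Emr1.

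The micro-dissected cells were grouped by their other genes to see which of them carry each receptor. Clusters were made without any gene of the adhesion receptor family and named from marker genes, so that no receptor took part in choosing the cells. They gave 164 erythroblast-like cells led by globin genes and 79 led by Car1, 96 myelocyte-like, 57 mature neutrophil-like, 47 eosinophil-like, 45 promyelocyte-like, 18 macrophage-like, 9 plasma cell-like, 8 megakaryocyte-like and 8 muscle-like cells. The top 10 genes of the eosinophil-like cluster include the basophil genes Prss34 and Mcpt8. A mixed cluster of 58 cells was clustered once more, after its genes had been seen, and 118 cells stayed unnamed. Each class in at least 3 libraries was tested against the other micro-dissected cells of the same libraries with edgeR and p-values adjusted over all genes. Of 27 pairs of a receptor and 1 of 7 named classes, 13 passed, 2 of them higher and 11 lower in the class. Over all genes, the shares called higher were 9.78% in globin-led, 9.72% in Car1-led, 5.42% in myelocyte-like, 3.98% in mature neutrophil-like, 3.77% in macrophage-like, 2.22% in promyelocyte-like and 1.92% in eosinophil-like cells. The shares called lower were 31.8% in globin-led, 26.4% in Car1-led, 21.9% in mature neutrophil-like, 13.9% in myelocyte-like, 7.8% in promyelocyte-like, 6.04% in eosinophil-like and 2.32% in macrophage-like cells. Over all genes the log2 fold changes had a median below 0 in each class, between -1.44 in mature neutrophil-like and -0.19 in promyelocyte-like cells.

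**Figure D3:**
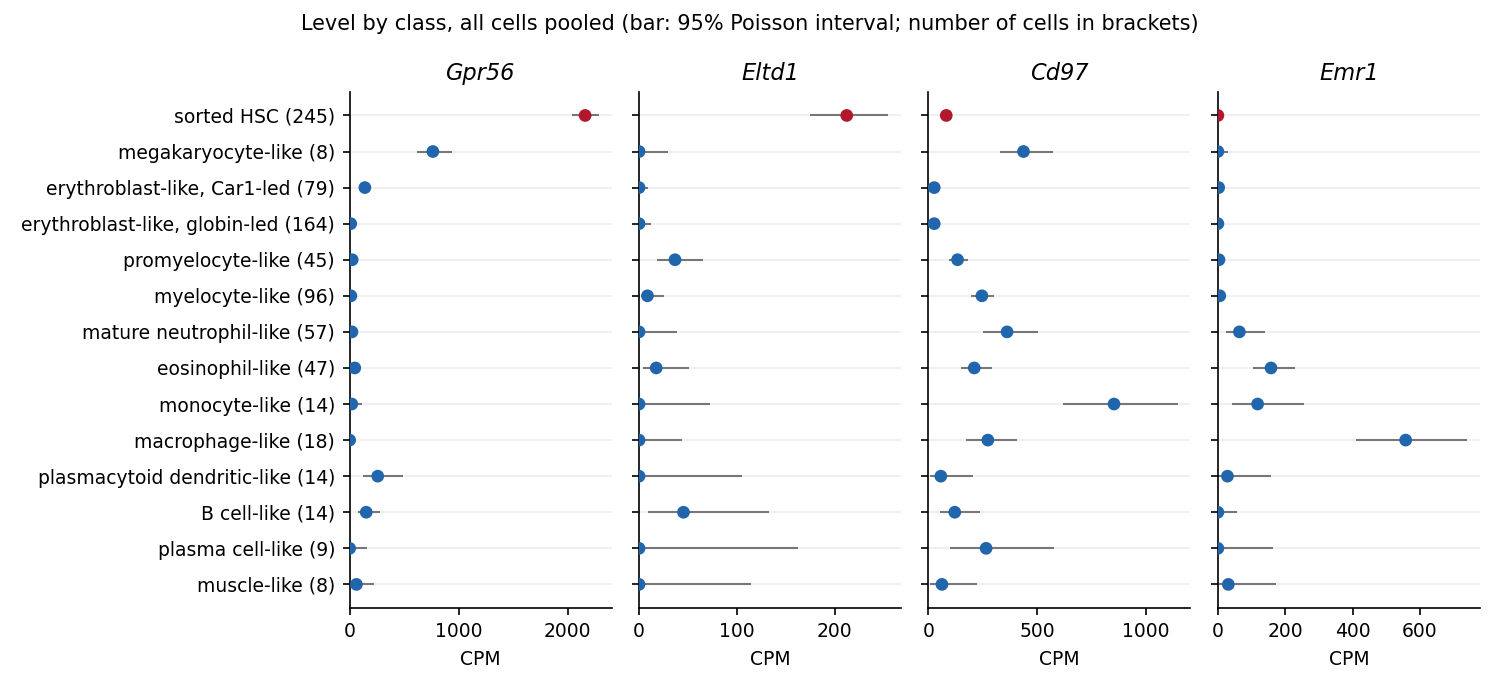
Level of each receptor (CPM over all pooled cells of a class, horizontal axes) in sorted HSC in red and in micro-dissected classes in blue, with the number of cells in brackets. Lines are 95% Poisson intervals that cover counting error only. Gpr56 is at 2158 CPM in sorted HSC and 763 CPM in megakaryocyte-like cells, Cd97 is highest in monocyte-like cells (853 CPM) and Emr1 in macrophage-like cells (558 CPM).

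Emr1 was higher in the macrophage-like cells. In the 3 libraries with at least 3 such cells, replicates 12, 16 and 17, it stood at 687, 697 and 623 CPM in macrophage-like cells and at 93.4, 24.9 and 19.2 CPM in the other cells. All 3 macrophage-like sums were above all 3 others. The means were 669 ± 40.5 CPM in macrophage-like cells and 45.8 ± 41.3 CPM in the others (SD, n = 3 libraries), a log2 fold change of 3.98 ± 0.70 (SE) with an edgeR adjusted p of 9.4e-07, and 3.77% of all genes tested were called higher in this class. Over all 11 libraries with at least 1 macrophage-like cell, an alternative added after the data had been seen, Emr1 was higher in 9 of 11 libraries, with a log2 fold change of 3.67 and an exact sign-flip permutation p of 0.0039 (two-sided). A transcript was found in 16 of 18 macrophage-like cells (88.9%, and 44.4% after thinning) at a median depth of 3800 transcripts, and in 0 of 164 globin-led erythroblast-like cells, which allows up to 1.83% (3 cells) with a detected transcript.

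Emr1 was also higher in eosinophil-like cells. Over 10 libraries its lowest, median and highest levels were 0, 123 and 576 CPM in eosinophil-like cells and 0, 26 and 94.8 CPM in the other cells. It was higher in the eosinophil-like cells of 8 libraries, lower in 1 and at 0 on both sides in the last. The means were 177 ± 181 CPM and 35.4 ± 32.7 CPM (SD, n = 10), a log2 fold change of 1.78 ± 0.48 (SE) with an edgeR adjusted p of 0.0045 and an exact sign-flip p of 0.0117, where 1.92% of all genes were called higher. The call was lost without replicate 13 (log2 fold change 1.45, adjusted p = 0.073) and with DESeq2 (1.08, adjusted p = 0.091). At resolution 2, where Prss34 and Mcpt8 no longer lead the cluster, the call was kept (1.86, adjusted p = 0.0029). With at least 2000 transcripts per cell, where they are not among the leading genes either, it was lost (1.17, adjusted p = 0.62).

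**Figure D4:**
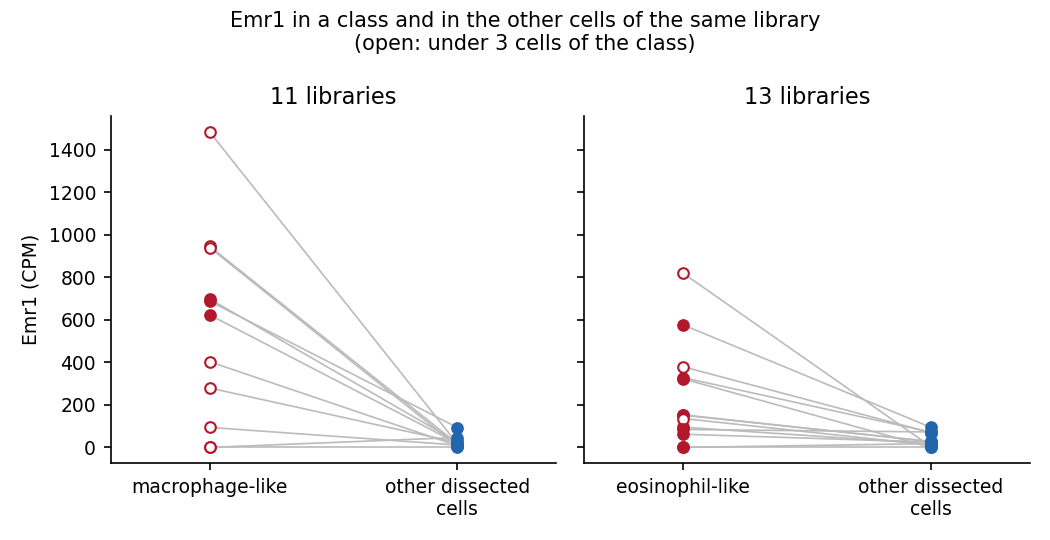
Emr1 level (CPM) in macrophage-like cells (left, 11 libraries) and eosinophil-like cells (right, 13 libraries) in red, each joined to the other micro-dissected cells of the same library in blue, with open points where a library held under 3 cells of the class. Macrophage-like cells lie above the others in 9 of 11 libraries and eosinophil-like cells in 11 of 13.

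Macrophage-like and eosinophil-like cells held 50.1% and 28.7% of all Emr1 transcripts of micro-dissected cells while being 2.55% and 6.65% of the cells. Monocyte-like cells had 118 CPM and mature neutrophil-like cells 63.8 CPM, and these neighbours overlapped with eosinophil-like cells or with each other within counting error. Against all other micro-dissected cells, macrophage-like and eosinophil-like cells included, Emr1 was lower in both erythroblast classes, in myelocyte-like and in promyelocyte-like cells. Outside macrophage-like and eosinophil-like cells, micro-dissected cells stood at 9.02 CPM (counting interval 5.52 to 13.9). The intervals of globin-led (0 to 12.2 CPM) and Car1-led cells (0.0611 to 13.3 CPM) overlapped with it. So did those of myelocyte-like (0.693 to 20.6 CPM) and promyelocyte-like cells (0.0849 to 18.5 CPM). Whether Emr1 was lower than that was not tested. In globin-led cells Emr1 had 0 transcripts in 12 libraries, at least 4.49-fold lower than in the other cells (edgeR adjusted p = 2.7e-06). In Car1-led cells it had 1 transcript, a ratio of 0.0496 to the other cells with an exact counting interval of 0.00124 to 0.285 (adjusted p = 9.2e-07). Myelocyte-like cells had 2 transcripts in 11 libraries, a ratio of 0.127 with an interval of 0.0152 to 0.474 (adjusted p = 0.0091). Promyelocyte-like cells had none in 5 libraries, at least 3.37-fold lower (adjusted p = 0.0023), a call that was lost without replicate 17 (adjusted p = 0.26).

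Gpr56 had a second site of high level outside the sorted HSC, the megakaryocyte-like cells. They are 1.13% of the micro-dissected cells and held 39.9% of their Gpr56 transcripts, at 763 CPM over 8 cells, all with a transcript. A single cell among them gave 43.5 of the 234.6 Gpr56 transcripts of all micro-dissected cells, and the median depth of the class was 10272 transcripts. No 3 libraries held enough of these cells for the planned test. In the 5 libraries with at least 1 such cell, compared after the data had been seen, Gpr56 averaged 708 ± 302 CPM in megakaryocyte-like cells and 38.4 ± 31.6 CPM in the others (SD, n = 5). It was higher in 5 of 5 libraries, with an edgeR log2 fold change of 3.62 ± 0.57 (SE, adjusted p = 7.2e-09) and an exact sign-flip p of 0.0625, the smallest that 5 libraries allow. In that fit 8.87% of all genes were called higher and the median of all genes was -2.19. The mixed cluster held 23.7% of the Gpr56 transcripts of micro-dissected cells. Over 9 libraries Gpr56 averaged 344 ± 467 CPM in the mixed cluster and 65.6 ± 67.6 CPM in the other cells (SD, n = 9), and it was higher there in 7 libraries and lower in 2. The log2 fold change was 1.72 ± 0.40 (SE) with an edgeR adjusted p of 0.00081, where 2.1% of all genes were called higher, and the exact sign-flip p was 0.094. Within that cluster Gpr56 stood at 745 CPM in 5 cells led by Ppic and Pf4, 550 CPM in 11 cells led by Ccl5, 258 CPM in plasmacytoid dendritic-like, 152 CPM in B cell-like and 19.6 CPM in monocyte-like cells. From the megakaryocyte-like cells down to the Car1-led erythroblasts each neighbour in this order overlapped with the next within counting error.

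Gpr56 differed between the erythroblast classes. Car1-led cells, whose leading gene encodes a carbonic anhydrase, had 140 CPM with a transcript in 34 of 79 cells, against 9.92 CPM and 3 of 164 in globin-led cells, and after thinning the shares were 12.7% and 1.37%. In the 9 libraries that held at least 3 of each, Gpr56 averaged 123 ± 80.4 CPM in Car1-led cells and 10.9 ± 18.1 CPM in globin-led cells (SD, n = 9). It was higher in Car1-led cells in 8 of 9 libraries, with a mean difference of 1.37 ± 0.97 (SD) in log2(CPM + 50) and an exact sign-flip p of 0.0117, in a comparison added after the data had been seen. The exception was replicate 15, where Gpr56 was at 0 CPM in Car1-led and 35.3 CPM in globin-led cells.

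Against all other micro-dissected cells, Gpr56 was lower in globin-led erythroblast-like, myelocyte-like and mature neutrophil-like cells. Those others include megakaryocyte-like, Car1-led and mixed cells, which held 39.9%, 24.8% and 23.7% of the Gpr56 transcripts of micro-dissected cells. Micro-dissected cells outside these classes stood at 15.7 CPM (counting interval 10.3 to 22.8). The intervals of globin-led (2.05 to 29 CPM), myelocyte-like (3.11 to 29.2 CPM) and mature neutrophil-like cells (2.58 to 76.6 CPM) overlapped with it. Whether Gpr56 was lower than that was not tested. Gpr56 averaged 8.14 ± 16.2 CPM in globin-led cells and 98.1 ± 69 CPM in the others (SD, n = 12). The ratio of the summed levels was 0.0894 with an exact counting interval of 0.0183 to 0.265 on 3 transcripts (edgeR adjusted p = 3.0e-06). Myelocyte-like cells averaged 8.49 ± 14.6 CPM and the others 97.2 ± 79.9 CPM (SD, n = 11), a log2 fold change of -3.03 ± 0.58 (SE, adjusted p = 5.3e-06). Mature neutrophil-like cells had 2 transcripts in 8 libraries, a ratio of 0.213 with an interval of 0.0256 to 0.781 (adjusted p = 0.010). That call was lost without replicate 10 (log2 fold change -2.02, adjusted p = 0.070). In Car1-led cells the log2 fold change was 0.55 ± 0.34 and in promyelocyte-like cells -1.24 ± 0.66, with adjusted p of 0.20 and 0.26. Over the 14 libraries with at least 1 promyelocyte-like cell, added after the data had been seen, Gpr56 averaged 14.3 ± 28.6 CPM in promyelocyte-like cells and 84.4 ± 77.2 CPM in the others (SD, n = 14). It was lower in 11 libraries and higher in 1, with a log2 fold change of -2.07 ± 0.52 (SE), an edgeR adjusted p of 0.00086 and an exact sign-flip p of 0.0020, where 14.6% of all genes were called lower. Macrophage-like cells had no Gpr56 transcript in 18 cells. In the 3 libraries of the planned test the others averaged 46.4 ± 17.1 CPM and the difference did not pass (adjusted p = 0.36). Over the 11 libraries with at least 1 macrophage-like cell, also added after the data had been seen, the others averaged 88.4 ± 70.9 CPM. There Gpr56 was at least 3.12-fold lower in macrophage-like cells (edgeR adjusted p = 0.00015, exact sign-flip p = 0.0020), where 18.1% of all genes were called lower. Of the clusters that no marker list named, the one led by AA467197 had 0 Gpr56 transcripts in 6 libraries, at least 3.68-fold lower than the other cells (adjusted p = 0.0014, with 10% of all genes called lower). The one led by Fcnb had 1 transcript in 5 libraries (adjusted p = 0.012, with 4.22% of all genes called lower).

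**Figure D5:**
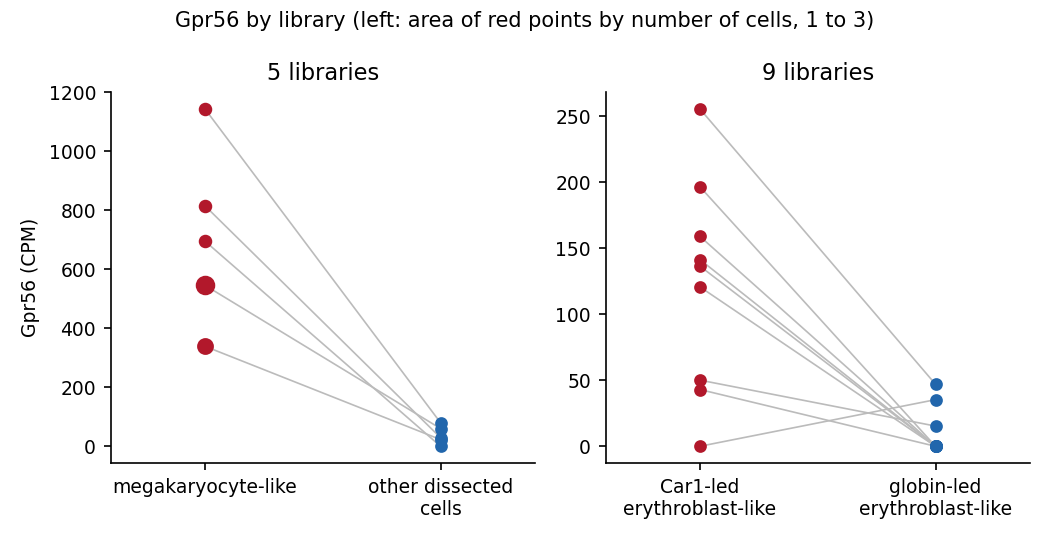
Gpr56 level (CPM) in megakaryocyte-like cells beside the other micro-dissected cells of the same 5 libraries, with point area by the number of cells, and in Car1-led beside globin-led erythroblast-like cells of 9 libraries. Lines join the values of 1 library. Megakaryocyte-like cells are above the others in 5 of 5 libraries, and Car1-led cells are above globin-led cells in 8 of 9.

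Cd97 had transcripts in all 10 named classes of micro-dissected cells and was highest in the monocyte-like cells of the mixed cluster, at 853 CPM with a transcript in 13 of 14 cells. Megakaryocyte-like cells had 437 CPM, mature neutrophil-like 361 CPM, macrophage-like 273 CPM, myelocyte-like 246 CPM, eosinophil-like 211 CPM and promyelocyte-like 134 CPM. The counting interval of the monocyte-like cells did not overlap with that of the megakaryocyte-like cells, and all later neighbours overlapped. Sorted HSC had 81.8 CPM, globin-led cells 26.5 CPM and Car1-led cells 26.4 CPM.

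In erythroblast-like cells Cd97 fell. Car1-led cells averaged 31.4 ± 41.9 CPM and the other cells 185 ± 74.1 CPM (SD, n = 10), a log2 fold change of -3.12 ± 0.38 (SE, edgeR adjusted p = 1.3e-14), and Cd97 was lower in 9 of 10 libraries. Globin-led cells averaged 38.6 ± 64.7 CPM and the others 196 ± 87.1 CPM (SD, n = 12), a log2 fold change of -2.86 ± 0.46 (SE, adjusted p = 8.1e-09), lower in 12 of 12 libraries. The shares of cells with a Cd97 transcript were 10.1% and 4.88% in Car1-led and globin-led cells, and 61.5% in myelocyte-like cells. In myelocyte-like cells the log2 fold change was 0.60 ± 0.27 and in mature neutrophil-like cells 0.53 ± 0.41, with adjusted p of 0.11 and 0.32. Promyelocyte-like cells had a log2 fold change of -0.58 ± 0.41 over 5 libraries (adjusted p = 0.45), and of -0.91 ± 0.31 over the 14 libraries with at least 1 such cell (edgeR adjusted p = 0.022).

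Eltd1 was rare among micro-dissected cells, with 25.1 transcripts in all 707. Promyelocyte-like cells held 44% of them, in 8 of 45 cells at a median depth of 5415 transcripts, and after thinning 1 of the 45 was left with a tag. Over 5 libraries the level was 29.6 ± 31.1 CPM in promyelocyte-like cells and 5.37 ± 5.93 CPM in the others (SD, n = 5), a log2 fold change of 2.45 ± 0.95 (SE) with an edgeR adjusted p of 0.080. With libraries of at least 1 promyelocyte-like cell, added after the data had been seen, it was 2.08 ± 0.61 over 14 libraries, with an adjusted p of 0.0062 and an exact sign-flip p of 0.047, where 4.18% of all genes were called higher. Both erythroblast classes had no Eltd1 transcript. The edgeR adjusted p was 0.012 in Car1-led cells, where the ratio of the summed levels to the other cells had an exact counting interval of 0 to 0.764. In globin-led cells the adjusted p was 0.036, but the counting interval of the ratio, 0 to 1.19, includes equal levels. The other cells held 20 Eltd1 transcripts beside the Car1-led and 23 beside the globin-led cells. The Car1-led call was lost without replicate 11 (adjusted p = 0.052) and the globin-led call without any 1 of replicates 11, 15, 16 and 17 (adjusted p from 0.0504 to 0.0610).

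Of the 25 other adhesion receptors with a row, 5 had at least 20 transcripts in the kept cells, 13 had 1 to 19 and 7 had none. Gpr97 (now Adgrg3), the neighbour of Gpr56 on chromosome 8 and known from neutrophils, had 52 CPM over all sorted HSC and 131 CPM over all micro-dissected cells, with a log2 fold change of -1.68 ± 0.47 (SE). It was higher in promyelocyte-like cells, with 357 ± 136 CPM there and 130 ± 80.5 CPM in the other cells of 5 libraries, a log2 fold change of 1.37 (edgeR adjusted p = 0.0064). In the same promyelocyte-like cells Gpr56 averaged 40.2 ± 36.9 CPM, and 68.8 ± 76.2 CPM in the others. Gpr97 also passed in myelocyte-like cells (log2 fold change 0.82 over 11 libraries, edgeR adjusted p = 0.032, exact sign-flip p = 0.29). Promyelocyte-like, myelocyte-like and Fcnb-led cells held 33.1%, 20% and 13% of the Gpr97 transcripts of micro-dissected cells. Emr4 (now Adgre4), on the same chromosome as Emr1, had 1.86 CPM over all sorted HSC, on 1 transcript, and 13.8 CPM over all micro-dissected cells. Like Emr1 it was higher in macrophage-like cells (log2 fold change 3.71, edgeR adjusted p = 0.0041) and in eosinophil-like cells (2.04, adjusted p = 0.015). These calls rest on 10 transcripts in macrophage-like and 11 in eosinophil-like cells. The exact sign-flip p was 0.25 over 3 macrophage-like libraries, the smallest they allow. It was 0.11 over 10 eosinophil-like libraries, of which 6 were higher and 2 lower. Lphn1 had 29.7 CPM over all sorted HSC and 4.04 CPM over all micro-dissected cells, with a log2 fold change of 2.46 ± 0.62 (SE). Lphn2 had 53.9 CPM in sorted HSC and 5.25 CPM in micro-dissected cells (2.75 ± 0.57), and Celsr1 had 27.9 CPM in sorted HSC and 4.85 CPM in micro-dissected cells (2.15 ± 0.62).

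Of 10 listed genes for known ligands and partners of Gpr56 and Cd97, 2 were higher and 0 lower in sorted HSC, where 17.4% and 10.5% of all genes were, with a median log2 fold change of -0.45 against 0.23 over all genes. Tgm2, which encodes transglutaminase 2, was higher (log2 fold change 1.67 ± 0.41 SE, edgeR adjusted p = 0.0012), as was Itga5, a fibronectin receptor subunit (3.88 ± 0.73, adjusted p = 2.4e-05). The 3 with the highest mean level were the tetraspanin Cd9 (80.1 ± 78 CPM in sorted HSC and 535 ± 698 CPM in micro-dissected cells) and the integrin subunits Itgb3 (13.4 ± 14.7 and 341 ± 574 CPM) and Itgb1 (334 ± 422 and 181 ± 176 CPM), all SD over 4 sorted and 17 micro-dissected libraries. None of these 3 passed the test, with log2 fold changes of -2.59, -4.43 and -0.44 and edgeR adjusted p of 0.11, 0.083 and 0.50. The sorted mean of Itgb1 includes a library at 965 CPM. Over all cells pooled, Itgb1 stood at 136 CPM in sorted HSC and 178 CPM in micro-dissected cells.

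Of the signal chain below these receptors, 10 of 12 listed genes could be tested. Of these, 0 were higher and 2 lower in sorted HSC, with a median log2 fold change of -0.43. Over all genes, 17.4% were higher and 10.5% lower, with a median of 0.23, and nothing is read from these counts for the chain. Rhoa was lower (212 ± 152 CPM in sorted HSC and 457 ± 107 CPM in micro-dissected cells, log2 fold change -1.02 ± 0.38, edgeR adjusted p = 0.033), as was Arrb2, an arrestin (-1.36 ± 0.46, adjusted p = 0.019). Gna11, a Gq class alpha subunit, stood at 31.3 ± 21 CPM in sorted HSC and 301 ± 704 CPM in micro-dissected cells, and Rock1, a kinase downstream of RhoA, at 88.4 ± 87.6 and 194.6 ± 69.3 CPM. Neither passed (edgeR adjusted p of 0.26 and 0.064). The micro-dissected mean of Gna11 includes a library at 2839 CPM. Over all cells pooled, Gna11 stood at 40.9 CPM in sorted HSC and 127 CPM in micro-dissected cells. It was among the leading genes of the unnamed cluster led by B630005N14Rik, whose 50 cells all came from micro-dissected replicates 1 to 5.

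Of 8 transcription factors of blood stem cells, 5 were higher and 0 lower in sorted HSC, with a median log2 fold change of 1.15. Over all genes, 17.4% were higher and 10.5% lower, with a median of 0.23. Gata2 and Mecom are also on the HSC marker list by which the sorted cells were described above. Gata2 (3.02 ± 0.56 SE, edgeR adjusted p = 0.00026), Erg (2.14 ± 0.77, adjusted p = 0.029), Lyl1 (1.03 ± 0.38, adjusted p = 0.030) and Lmo2 (1.27 ± 0.32, adjusted p = 0.0015) rose, and Mecom had 65.2 transcripts in sorted HSC and none in micro-dissected cells. Lmo2 had the highest mean level of the list, at 1264 ± 328 CPM in sorted HSC and 373 ± 140 CPM in micro-dissected cells. Tal1 and Fli1, the next in level, had log2 fold changes of -0.42 ± 0.42 and 0.22 ± 0.44 and did not pass (adjusted p of 0.48 and 0.75). Genes of these 3 lists that passed the test were named after their values had been seen, and the lists were compared in the contrast from which Gpr56 and Eltd1 were put forward.

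The genes whose levels were most like those of each receptor were ranked over 54 sums of a library and a class, among 6986 genes, by Pearson's r of log2(CPM + 50). The sums share libraries, and sorted HSC libraries enter as one class, so r describes the pattern and has no test. A sum needed at least 5 cells. No library held that many macrophage-like or megakaryocyte-like cells, so the classes with the highest Emr1 level and, among micro-dissected cells, the highest Gpr56 level took no part in the ranking. Gpr56 was most like Cd27, a receptor of the tumour necrosis factor receptor family (r = 0.86), followed by Serpina3g, Eng, Meis1 and Eya2 (r = 0.83). Eltd1 was most like Eya2 (r = 0.89), Eva1b, Pglyrp2, Afap1l1 and the stem cell factor Hlf (r = 0.87). Cd97 was most like Coro1a, a leukocyte actin regulator (r = 0.82), Alox5ap, Actr3, Arpc2 and Sh3bgrl3. Emr1 was most like Fcer1a (r = 0.75), Alox15, Epx, Prg3 and Ear1 (r = 0.68), of which Epx, Prg3 and Ear1 are eosinophil granule genes and Fcer1a is a gene of basophils and mast cells.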

How the data were processed

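The authors deposited a table of estimated counts of transcripts per gene and cell, made from CEL-seq reads with BWA 0.6.2-r126 and the build mm10, per the submitters' processing notes; how reads were counted is not stated in those notes. By the values, numbers of random tags (256 possible) had been corrected for tags drawn more than once, as deposited. Estimated counts were summed per library, or per library and class, and rounded before each test. Deposited per-library tables of the micro-dissected cells served as an alternative for levels and gave 1 further library, micro-dissected replicate 18. Sorted replicate 2 was not analysed here.

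Cells with at least 1000 transcripts were clustered (scanpy 1.11.5, Leiden, resolution 1, seed 1) on 2000 variable genes, 30 components and 15 neighbours, without adhesion receptor genes. Names needed 3 markers, by a rule set after clusters had been seen. Doublets were not called, and clumps were the material. No 2 kept cells had identical profiles. Sums were tested with edgeR 4.0.16 (R 4.3.3) quasi-likelihood fits of genes with at least 10 transcripts and TMM factors from genes with a mean of at least 5 per sum, a choice made after a check on simulated data. Classes were tested with the library as a block, in libraries with at least 3 cells of each kind. Replicate numbers follow the order of deposit and pair nothing across groups. P-values were adjusted over all genes (Benjamini-Hochberg). Standard errors were derived from the F statistic and are approximate. Single genes were tested with exact two-sided sign-flip permutation tests of log2(CPM + 50) over libraries (scipy 1.17.1). DESeq2 1.42.0 was an alternative. The members and lists were chosen with earlier results of these data known. Named are the members, other family genes with at least 20 transcripts, the 3 genes with the highest mean level of each list, and the 5 genes most like each member.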

Additional observations from a re-analysis of the deposited data

Results flagged for a closer look

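Among 10 groups of libraries tested for a value far from the others, of which chance flags about 1 in 20, 2 were picked out. Emr1 in Car1-led erythroblast-like cells stood at 15.1 CPM in 1 of 10 libraries, on 1 transcript, and at 0 in the others. Gpr56 in mature neutrophil-like cells stood at 104 CPM in 1 of 8 libraries, on 2 transcripts, and at 0 in the others. With all other libraries at 0 the rate of 1 in 20 need not hold, and nothing is read from these 2 values.

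Micro-dissected replicate 18, which has no columns in the series table, held 31 Gpr56, 39.3 Cd97 and 21.3 Emr1 transcripts in its own table, all above the 3 transcripts that a count of 0 allows. Of the Gpr56 transcripts, 21.9 came from the 1 well with at least 10 transcripts of Pf4, a platelet chemokine of megakaryocytes, and 9.06 from the other 82 wells. Of the Emr1 transcripts, 14.3 came from the 2 wells with at least 10 transcripts of the C1q genes, which macrophages express, at 1908 CPM, and 7.02 from the other 81 wells, at 24.8 CPM. The 2 wells with at least 10 transcripts of Prg2, a gene of the eosinophil list, held 2.01 Emr1 transcripts. That is 111 CPM, against 70.7 CPM in the 81 wells without that many Prg2 transcripts.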

How the results depend on the processing

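Of 702 alternatives, 640 kept both the direction and the side of the threshold, and no called result reversed. The log2 fold changes of sorted HSC over micro-dissected cells ran from 4.06 to 4.63 for Gpr56, 3.81 to 4.30 for Eltd1 and -1.63 to -1.21 for Cd97 (4.06 to 4.61, 4.01 to 4.14 and -1.57 to -1.25 with each sorted replicate left out). Of 13 called pairs of receptor and class, 8 kept their call under all alternatives. For Emr1 in eosinophil-like cells it was lost with DESeq2 (1.08), at least 5 cells of each (2.38), at least 2000 transcripts (1.17) and without replicate 13, with a range of 1.45 to 2.08 over left-out replicates. For Eltd1 in Car1-led cells it was lost without the deepest 5% of cells (-3.04) and replicate 11 (range -3.67 to -3.12). For Eltd1 in globin-led cells it was lost with no filter (-3.23), resolution 2 (-3.28), at least 500 (-3.13) or 2000 (-3.32) transcripts, without the deepest 5% (-2.65) and without any 1 of 4 replicates (range -3.38 to -3.06). For Gpr56 in mature neutrophil-like cells it was lost with at least 5 cells (-2.31), without the deepest 5% (-1.64) and replicate 10 (range -6.42 to -2.02), and for Emr1 in promyelocyte-like cells without replicate 17 (range -5.93 to -4.47). Emr1 in macrophage-like cells ran from 3.47 to 4.85 over left-out replicates, with 2 libraries left in each fit. The cause was not tested. Without the replicate block of the library no call of these pairs changed (Emr1 3.93 in macrophage-like and 1.69 in eosinophil-like cells).

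Shares of cells with a transcript moved with depth. Thinned, they were 84.9% (Gpr56), 16.3% (Eltd1) and 6.12% (Cd97) of sorted HSC, and 4.55% (Gpr56), 0.587% (Eltd1), 15.3% (Cd97) and 4.11% (Emr1) of micro-dissected cells. At 500 transcripts, Gpr56 and Cd97 were in 8.79% and 29.1% of micro-dissected cells. At 2000, Cd97 was in 21.6% of sorted HSC, and Gpr56 and Cd97 in 17.5% and 46.4% of micro-dissected cells.

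Counts of genes called moved more. Between sorted HSC and micro-dissected cells they were 3048, with 1105 by filterByExpr, 1639 by DESeq2 and 1959 without sorted replicate 3, and 37.4%, 34.2% and 67.7% of them higher. Library totals gave 72.5% higher (median log2 fold change of all genes 0.45) and TMM factors from all genes 51.7% (0.04). By class the counts were 739 (85 to 1755) in eosinophil-like, 3377 (590 to 3795) in Car1-led, 4121 (620 to 6311) in globin-led, 410 (119 to 2291) in macrophage-like, 2423 (502 to 3787) in mature neutrophil-like, 1880 (436 to 2245) in myelocyte-like and 816 (318 to 1851) in promyelocyte-like cells.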
